A study of Homo sapiens with 4 samples.

Results

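The 10 genes described here encode regulators of the anaphase-promoting complex (APC/C) and of the spindle checkpoint that holds it in check. They are the coactivators CDC20 and FZR1, the ubiquitin-conjugating (E2) enzymes UBE2C and UBE2S, the inhibitor FBXO5, and the checkpoint genes MAD2L1, BUB1B, BUB3, TTK and TRIP13. They were picked by gene symbol, and each of the 10 had exactly 1 row among the 62696 gene rows of the series. The series holds 4 RNA-seq libraries of OVCAR3, a human line established from a serous ovarian carcinoma of high grade. In 3 of the libraries the pseudogene transcript ANAPC1P2 was knocked down with short hairpin RNA (KD, n = 3, called Set 1 to 3 by the submitters and KD 1 to 3 here), and the other library is labelled as wild-type OVCAR3 (WT, n = 1). All cells were grown in RPMI with 10% serum. None of the libraries is labelled as carrying a non-targeting hairpin, so the knockdown and the carrying of a hairpin cannot be told apart. Nothing in the labels says whether the KD sets were separate cultures or hairpins, and the spread behind the p-values may therefore be technical only.

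The APC/C is a ubiquitin ligase that marks mitotic proteins for destruction and so drives the separation of chromosomes and the exit from mitosis. CDC20 activates it in mitosis and FZR1 (also called CDH1) in late mitosis and G1, while UBE2C starts and UBE2S extends the ubiquitin chains. When kinetochores lack microtubules, the kinase TTK starts the checkpoint signal, and MAD2L1, BUB1B and BUB3 bind CDC20 in the mitotic checkpoint complex, which inhibits the APC/C. The ATPase TRIP13, together with the adaptor MAD2L1BP, takes that complex apart, and FBXO5 (EMI1) inhibits the APC/C before mitosis.

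The letters of the promoters are shown because transcription of many mitotic genes runs through a CHR element (cell cycle genes homology region), which binds the LIN54 subunit of the MuvB complex, often near CCAAT boxes bound by NF-Y. RefSeq promoter windows on GRCh38.p14, from 250 bases before to 50 bases after a transcription start, were at hand for 7 of the 10 genes (9 windows, with 2 starts each for FBXO5 and FZR1). UBE2C, BUB3 and TTK had no entry. The letters TTTGAA (CHR), CCAAT (NF-Y box) and TTCCCGC (E2F core) were searched on both strands, and letters of different motifs do not overlap in these 9 windows. CHR letters lay in 5 of the 9 windows (1 each of CDC20, MAD2L1, FBXO5, BUB1B and FZR1), beside 15.2% of all 35116 windows of this length. CCAAT letters lay in 4 of the 9 windows (1 each of CDC20, MAD2L1, FBXO5 and UBE2S), beside 34.6% of all windows, and the E2F core in 1 window of FZR1, beside 6.55%. A match is a description of the letters and not evidence of binding. The sequences printed here show how the motifs are placed in genes with large and small differences: the 150 bases before the start for CDC20 (chr1:43358831-43358980, plus strand), for the downstream of the 2 starts of FBXO5 (chr6:152983042-152983191, minus strand), for BUB1B (chr15:40160919-40161068, plus strand) and for the upstream of the 2 starts of FZR1 (chr19:3506161-3506310, plus strand), and a 26-base stretch after the start of MAD2L1 (chr4:120066809-120066834, minus strand). They run 5′ to 3′ on the strand of the gene, and capitals mark the letters of any of the motifs.
CDC20: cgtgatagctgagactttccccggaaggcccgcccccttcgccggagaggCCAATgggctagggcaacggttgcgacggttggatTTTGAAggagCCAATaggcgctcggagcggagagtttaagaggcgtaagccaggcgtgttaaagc
FBXO5: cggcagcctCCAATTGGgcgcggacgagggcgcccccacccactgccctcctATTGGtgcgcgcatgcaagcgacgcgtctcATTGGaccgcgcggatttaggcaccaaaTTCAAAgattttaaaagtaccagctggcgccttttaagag
BUB1B: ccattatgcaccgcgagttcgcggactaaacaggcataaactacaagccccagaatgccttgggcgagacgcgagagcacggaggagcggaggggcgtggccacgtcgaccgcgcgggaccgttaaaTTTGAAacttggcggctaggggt
MAD2L1: cgtcgttactTTTGAAacgcttggcg
FZR1: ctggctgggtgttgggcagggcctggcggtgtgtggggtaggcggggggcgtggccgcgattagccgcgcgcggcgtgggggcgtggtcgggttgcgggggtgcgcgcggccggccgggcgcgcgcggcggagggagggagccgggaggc

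In CDC20 the CHR letters begin at base -65, counted from the start, and stand between CCAAT boxes that begin at -100 and -55, and another CHR lies on the opposite strand at -178, outside the stretch shown. FBXO5 carries the CHR on the strand opposite to the gene, where its letters read TTCAAA from -40, downstream of CCAAT letters at -141 on the strand of the gene and at -138, -98 and -68 on the opposite strand. The boxes at -141 and -138 overlap. In BUB1B the CHR begins at -23, and in MAD2L1 it lies within the transcript, at base 25 after the start. The stretch of FZR1 holds none of the motifs. Its CHR letters lie farther out, at -226, and its E2F core lies at -12 from the other start. The window of TRIP13 holds none of the motifs, and that of UBE2S holds CCAAT letters at -191 but no CHR. The log2 differences between KD and WT were 1.91 for TRIP13, 1.78 for UBE2S and 0.46 for FZR1. Whether the letters go with the size of the difference was not tested.

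The KD libraries held 42871815 to 56216398 counted reads each and WT held 27868718. The targeted transcript ANAPC1P2 has 2 gene rows. 1 of them was at 0 throughout, and the other held 0, 11 and 8 reads over KD 1, 2 and 3, against 14 in the WT library, too few to pass the filter on low values. The library labelled WT stood apart from the others in markers of other cell types. Erythroid markers summed to 17.8 to 29.5 normalized counts in KD, where 6 of 10 (SLC4A1, AHSP, HBA2, HBA1, HBD and HBB) were at 0, and to 15024 in WT, where all 10 had reads. The 6 erythroid markers tested were all lower in KD. Of 10 leukocyte markers tested 9 were lower in KD, and the list summed to 202 to 270 in KD (LYZ, CD68, MS4A1 and FCGR3B at 0) and 1303 in WT. Of 12 mesenchymal markers tested 8 were lower in KD, and the list summed to 659 to 853 in KD (ZEB1 and COL3A1 at 0) and 3828 in WT. Of 9 neural markers tested 1 was higher and 5 were lower in KD, and the list summed to 5644 to 6418 in KD (NEUROD6 and CHRM2 at 0) and 6272 in WT. Of the neural sums, MBP alone held 5400 to 6185 in KD and 2595 in WT, and without it the list summed to 227 to 245 in KD and 3678 in WT. Of 16 markers of epithelial ovarian carcinoma, all with reads in both groups, 9 rose and 5 fell in KD, and the list summed to 139416 to 154771 in KD and 582014 in WT. The mucin gene MUC16 held 24678 to 35345 of that in KD and 458890 in WT, and without it the sums were 112659 to 122534 in KD and 123124 in WT. These near-equal sums hide differences of single genes in both directions. PAX8 held 18322 to 21361 in KD and 62685 in WT, and KRT8 held 20854 to 22521 in KD and 9468 in WT. Whether the library labelled WT holds the same line as KD, without other cells or RNA, was not tested, and every difference from WT given here rests on that label. The part of these marker differences in the results below was not tested, and since WT is a single library no result can be given without it. In bulk RNA, fewer cells of a type and less RNA per cell cannot be told apart.

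All 10 genes were called higher in KD than in WT (limma-trend on log2 of the normalized count plus 1, Benjamini-Hochberg adjusted over 23344 genes, threshold 0.05), where 31.4% of all genes tested and 45.9% of the protein-coding ones were called higher. The log2 differences ran from 0.46 for FZR1 to 3.09 for MAD2L1, with a median of 1.85, beside medians of -0.28 over all genes tested and 0.28 over the 14464 protein-coding ones. The scaling of the libraries shifts all of these values together. With equal library totals the median of all genes moved by -0.56, to -0.84, and the split of calls over all genes moved to 20.3% higher and 53.6% lower. Over protein-coding genes the split was 45.9% higher and 24.7% lower with the deposited scaling and 29.8% higher and 44.3% lower with equal totals. The median of the 10 genes with equal totals was 1.29, 9 of them were called, and FZR1 stood at -0.10 (adjusted p = 0.384). All 3 KD libraries lay above WT for 10 of 10 genes by normalized count, against 40.0% of all genes and 55.7% of protein-coding ones. By the share of the library total this held for 9 of 10 (all but FZR1), against 26.9% of all genes and 37.7% of protein-coding ones.

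**Figure D1:**
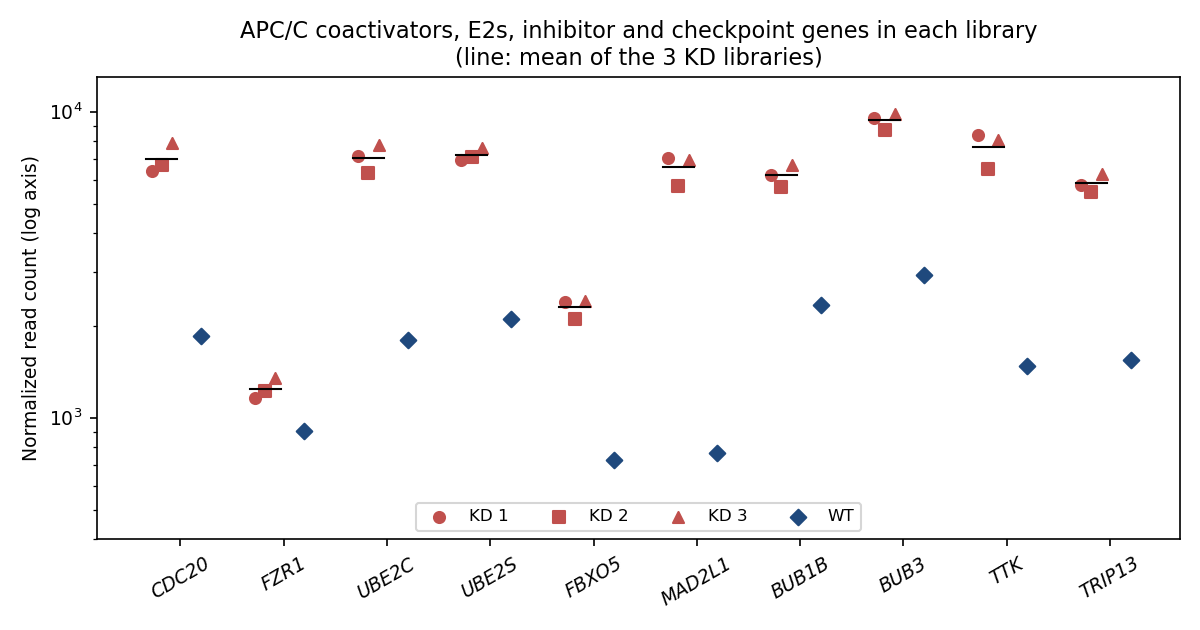
Normalized read count (log axis) of each of the 10 genes in the 3 KD libraries (red, with a line at their mean) and the WT library (blue). The KD points lie above the WT point for each gene, farthest for MAD2L1 (KD mean 6576, WT 769) and nearest for FZR1 (KD mean 1244, WT 903).

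CDC20 and FZR1, which bring substrates to the APC/C in turn, differed by unlike amounts. CDC20 (ENSG00000117399.14, chromosome 1, 43358955 to 43363203 in GENCODE 29 on GRCh38) had 6396, 6699 and 7898 normalized counts in KD 1, 2 and 3 and 1850 in WT. The KD libraries all lay far above WT. Their coefficient of variation was 11.3%, beside a median of 7.8% over the 10 genes. The log2 difference was 1.91 ± 0.14 (SE; limma adjusted p = 9.26e-05). FZR1 (ENSG00000105325.15, chromosome 19, 3506273 to 3538330) had 1163, 1222 and 1345 normalized counts in KD and 903 in WT. Its KD values were also above WT, but by less than those of any other of the 10 genes. The log2 difference was 0.46 ± 0.12 (SE; limma adjusted p = 0.0154) with the deposited scaling, and it turned to -0.10 with equal library totals and to -0.01 with upper-quartile scaling. FZR1 lay 0.18 above the median of protein-coding genes on the log2 scale, and 55.8% of these genes had a lower difference, whereas 93.2% had a lower one than CDC20. The reads of CDC20 were 5.50, 5.48 and 5.87 times those of FZR1 in KD 1, 2 and 3 and 2.05 times in WT (95% exact counting interval 1.88 to 2.23). This ratio is formed within each library and does not depend on its scaling. Intervals of this kind cover counting error only. CDC20 and FZR1 also differ in exonic length (2038 and 5802 bases), and the part of length in their ratio was not tested.

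Both E2 genes rose by similar amounts. UBE2C (ENSG00000175063.17, chromosome 20, 45812576 to 45816957) had 7187, 6311 and 7755 normalized counts in KD 1, 2 and 3 and 1797 in WT. UBE2S (ENSG00000108106.14, chromosome 19, 55399745 to 55407777) had 6942, 7136 and 7607 in KD and 2097 in WT. For both, WT lay below all KD libraries. The log2 differences were 1.97 ± 0.13 for UBE2C and 1.78 ± 0.10 for UBE2S (SE; limma adjusted p = 8.03e-05 and 6.57e-05). The ratio of UBE2C to UBE2S reads was 1.04, 0.884 and 1.02 in KD and 0.857 in WT (counting interval 0.801 to 0.916), so that KD 2 lay within the interval of WT and the other KD libraries lay above it.

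FBXO5 (ENSG00000112029.10, chromosome 6, 152970519 to 152983579), the inhibitor, had 2393, 2107 and 2401 normalized counts in KD 1, 2 and 3 and 725 in WT. The groups did not overlap, and the log2 difference was 1.66 ± 0.12 (SE; limma adjusted p = 8.72e-05). Per read of CDC20 there were 0.374, 0.315 and 0.304 reads of FBXO5 in KD and 0.392 in WT (counting interval 0.357 to 0.429), so KD 1 lay within the interval of WT and the other KD libraries below it.

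**Figure D2:**
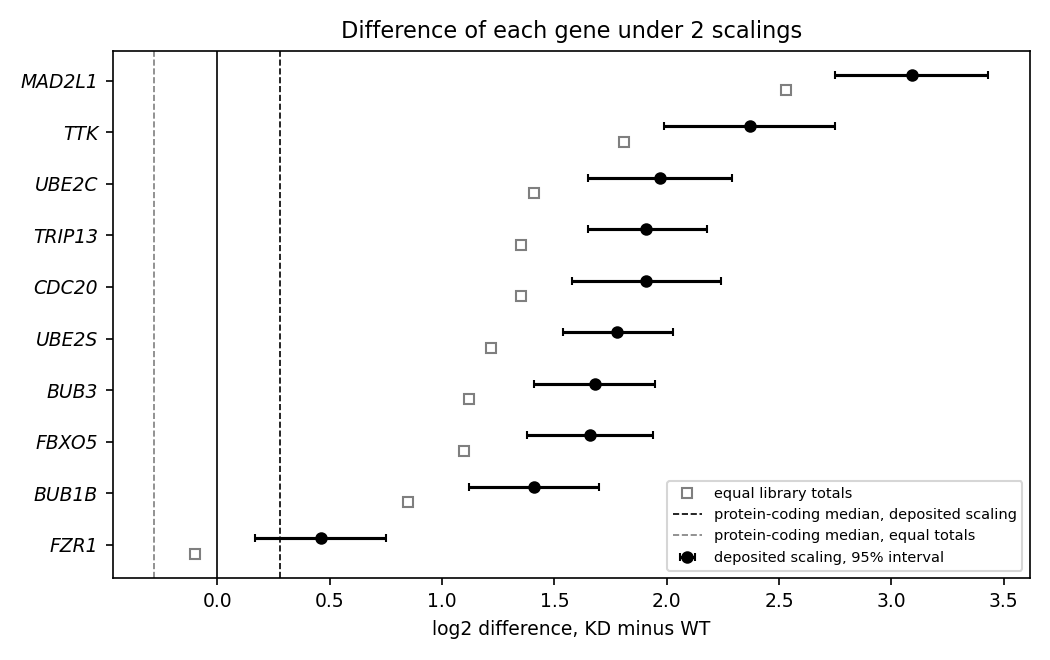
log2 difference between KD (n = 3) and WT (n = 1) for each gene with the deposited scaling (filled, with the 95% interval of limma) and with equal library totals (open squares). Dashed lines mark the median of protein-coding genes under each scaling, and FZR1 is the only one of the 10 whose open square lies below 0.

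MAD2L1, whose protein binds CDC20 in the checkpoint complex, had the largest difference of the 10. The gene (ENSG00000164109.14, chromosome 4, 120055608 to 120067074) had 7053, 5714 and 6963 normalized counts in KD 1, 2 and 3 and 769 in WT. The KD mean was 8.56 times the WT value, and the log2 difference was 3.09 with a 95% interval of 2.75 to 3.43 (limma adjusted p = 6.57e-05). Of all genes tested, 99.1% had a lower difference.

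The kinase gene TTK (ENSG00000112742.10, chromosome 6, 80003887 to 80042527) followed, with 8389, 6503 and 8099 normalized counts in KD and 1473 in WT. Its log2 difference was 2.37 ± 0.16 (SE; limma adjusted p = 7.87e-05), and KD 2 was the lowest of the KD libraries, as for MAD2L1. BUB1B, which encodes the checkpoint protein BUBR1 (ENSG00000156970.13, chromosome 15, 40161023 to 40221136), had 6230, 5677 and 6697 in KD and 2328 in WT. Its log2 difference of 1.41 ± 0.12 was the smallest among the checkpoint genes (SE; limma adjusted p = 1.46e-04). BUB3, the partner of BUB1B (ENSG00000154473.18, chromosome 10, 123154277 to 123170467), had 9552, 8702 and 9841 in KD and 2918 in WT. That is a log2 difference of 1.68 ± 0.11 (SE; limma adjusted p = 7.72e-05), and no KD library came near WT. TRIP13 (ENSG00000071539.14, chromosome 5, 892643 to 919357) had 5781, 5481 and 6248 in KD and 1546 in WT, a log2 difference of 1.91 ± 0.11 (SE; limma adjusted p = 6.57e-05). Its KD libraries were again well above WT.

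Among the transcripts of the mitotic checkpoint complex, the share of MAD2L1 was higher in KD. Reads were divided by the length of the principal GENCODE 29 transcript, taken as the longest where several shared the best principal tag. MAD2L1 then made up 16.6%, 14.0% and 14.5% of the sum of MAD2L1, BUB1B, BUB3 and CDC20 in KD 1, 2 and 3 and 6.4% in WT. BUB1B made up 21.5%, 20.5% and 20.5% in KD and 28.7% in WT. The shares of BUB3 were 15.0% ± 0.68 in KD (SD, n = 3) and 17.1% in WT, and those of CDC20 49.2% ± 2.53 in KD and 47.8% in WT. The WT share of CDC20 lay within the KD range of 46.3% to 50.7%. The WT share of MAD2L1 lay below and those of BUB1B and BUB3 above all KD values. The shares of a library add up to the whole, so a higher share of MAD2L1 lowers the others, and they were not formed without it. Apart from MAD2L1, reads of BUB1B were 0.652, 0.652 and 0.681 times those of BUB3 in KD and 0.798 times in WT. They were 0.974, 0.847 and 0.848 times those of CDC20 in KD and 1.258 times in WT.

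The ratios of reads within a library use neither lengths nor scaling. A difference between the groups that goes with gene length, described below, would not cancel in them, and its part was not tested. MAD2L1 reads were 1.13, 1.01 and 1.04 times those of BUB1B in KD and 0.33 times in WT (counting interval 0.303 to 0.36), and 0.738, 0.657 and 0.708 times those of BUB3 in KD and 0.263 times in WT. TTK reads were 1.35, 1.15 and 1.21 times those of BUB1B in KD and 0.633 times in WT. The ratio of TRIP13 to MAD2L1 was lower in KD, at 0.82, 0.959 and 0.897 in KD and 2.01 in WT. The ratio of TRIP13 to its adaptor MAD2L1BP was 6.37 ± 0.652 in KD (SD, n = 3) and 5.64 in WT, whose counting interval of 4.92 to 6.48 held the values of KD 1 and KD 2. In all, 13 such ratios were formed. They carry no p-value, because an exact permutation test of 3 libraries against 1 cannot go below 0.25 one-sided. The same floor (0.5 two-sided) would hold for such a test of any single gene. The limma p-values given for genes rest on the assumption that the lone WT library varies like the KD libraries.

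**Figure D3:**
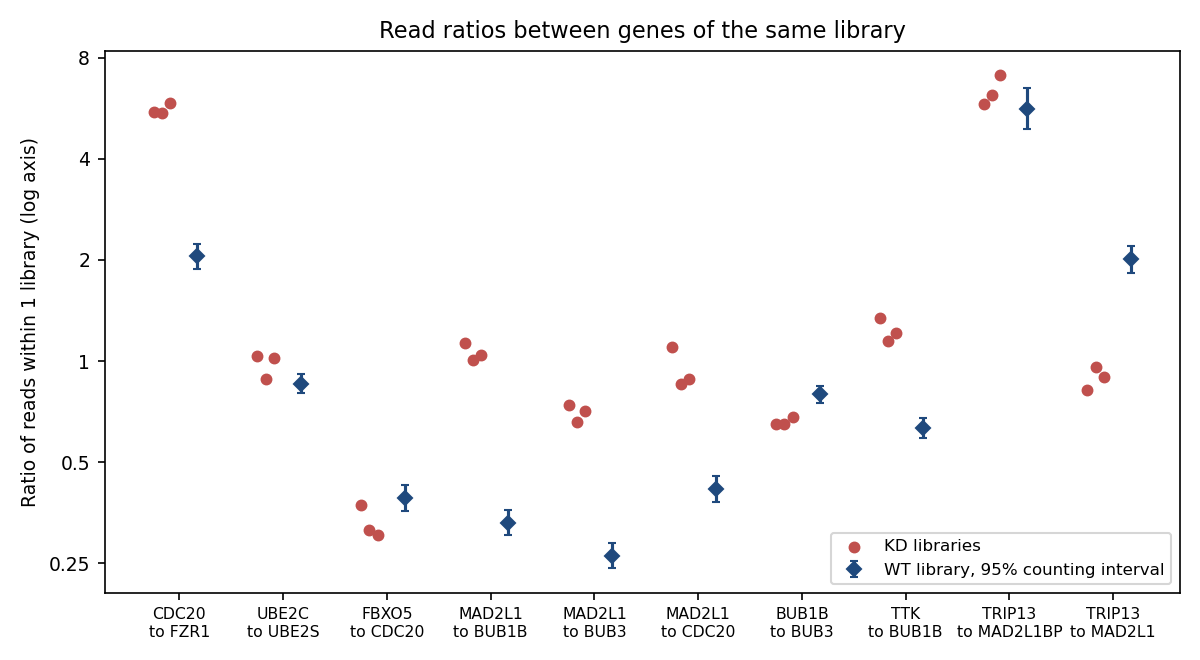
Ratio of the reads of 2 genes within the same library (log axis) in the KD libraries (red) and in WT (blue, with its 95% exact counting interval). MAD2L1 to BUB1B lies between 1.01 and 1.13 in KD and at 0.33 in WT, while UBE2C to UBE2S and TRIP13 to MAD2L1BP lie close together in both groups.

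Levels per length put UBE2C first in both groups, with FZR1 last in KD and MAD2L1 last in WT. On the RPKM scale (reads per kilobase of principal transcript, divided by the library total), UBE2C stood at 182 ± 10.9 in KD (SD, n = 3) and 68.3 in WT, followed in both groups by CDC20 and UBE2S. CDC20 stood at 86.0 ± 7.44 in KD and 33.6 in WT, and UBE2S at 62.0 ± 2.45 in KD and 26.6 in WT. In KD the order went on with TTK (55.5), TRIP13 (47.7), BUB1B (36.4), MAD2L1 (26.2), BUB3 (26.1), FBXO5 (24.7) and FZR1 (5.21). The KD ranges of UBE2S and TTK, of MAD2L1 and BUB3, and of BUB3 and FBXO5 overlapped, and those of the other neighbours in this order did not. In WT, BUB1B (20.2), TRIP13 (18.7) and TTK (15.8) came next, then BUB3 (12.04) and FBXO5 (11.5), with FZR1 at 5.60 and MAD2L1 last at 4.54. MAD2L1 thus came last of the 10 in WT and beside BUB3 in KD. With merged exon lengths in place of the principal transcript, the order in KD was the same, and in WT only BUB3 and TTK changed places. Merged exons include those of the principal transcript, so they are not an independent check of the lengths.

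The coefficient of variation of the normalized counts over the 3 KD libraries ran from 4.7% for UBE2S to 13.3% for TTK, with a median of 7.8%, beside a median of 6.4% over the 5636 genes of like KD level. Counting alone would give 1.0% to 2.8%. KD 2 was the lowest library for 7 of the 10 genes, all but CDC20, FZR1 and UBE2S, both by normalized count and by share of the library total. The KD library with the highest value was KD 3 for 8 genes by normalized count and for 5 by share of the library total. No share over all genes is given for the lowest or highest library. Whether these counts are particular to the 10 genes was not tested.

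Gene length moved with the difference between the groups. Over the protein-coding genes tested, cut into 5 equal-sized bins, the median log2 difference was 0.73 in the bin with the shortest merged exons (180 to 2849 bases) and -0.10 in the bin with the longest (8254 to 118976 bases). CDC20, UBE2C and UBE2S are in the shortest bin, where 53.6% of genes were called higher, and 83.7%, 84.9% and 80.8% of its genes had a lower difference than theirs. BUB3 is in the longest bin, where 32.5% were called higher, and its 1.68 was above 97.1% of that bin. MAD2L1 and TTK, with a median of 0.33 in their bin, lay above 99.6% and 98.3% of it, BUB1B above 86.2% and FZR1 above 54.6%. FBXO5 and TRIP13, in the second shortest bin with a median of 0.51, lay above 86.5% and 92.0% of it. The part of length in these differences was not tested.

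**Figure D4:**
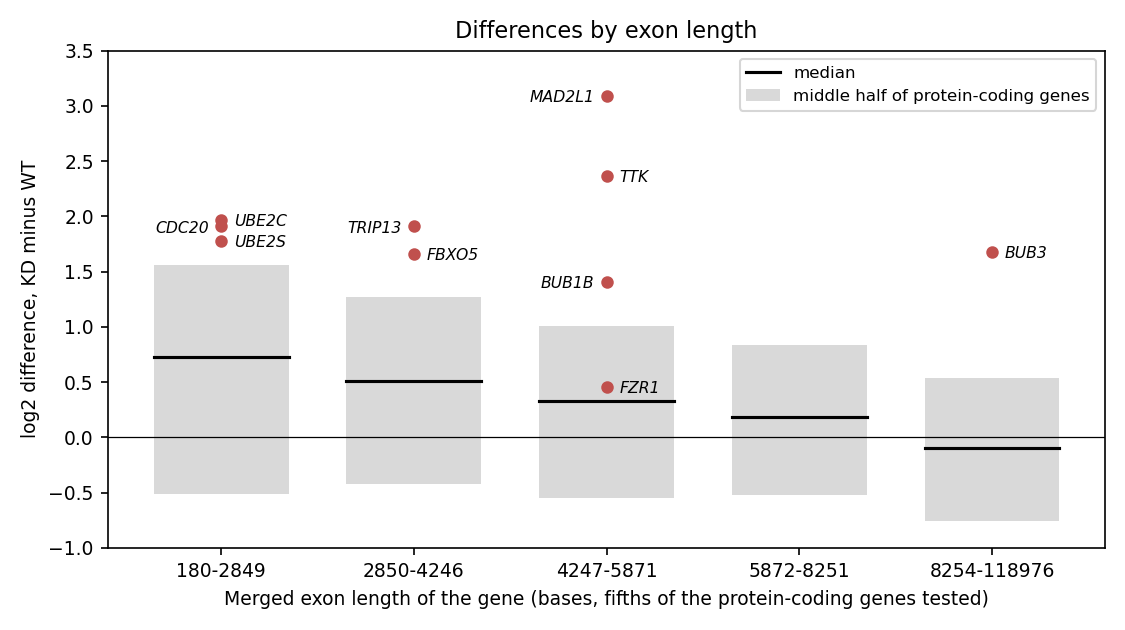
log2 difference between KD and WT (deposited scaling) by merged exon length of protein-coding genes, in 5 equal-sized bins. Grey boxes span the quartiles, black lines are medians (0.73 in the shortest bin and -0.10 in the longest), and red points are the 10 genes, of which only FZR1 lies within the box of its bin.

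Near-identical copies held few reads beside their genes in KD, and more in WT for MAD2L1. The pseudogene MAD2L1P1 had 15, 18 and 10 reads in KD 1, 2 and 3 and 80 in WT, which is 0.2% of the reads of MAD2L1 in KD and 11.6% in WT. The copy UBE2SP1 had 2.24% of the reads of UBE2S in KD and 2.7% in WT, and the copies of UBE2C and CDC20 each had at most 0.24% in KD and 1.73% in WT. BUB3P1 had no read. The readthrough gene BUB1B-PAK6 shares 10.2% of the exonic bases of BUB1B on the same strand, and had 1, 6 and 1 reads in KD and 5 in WT. TRIP13, FBXO5, FZR1 and MAD2L1 overlap exons of a gene on the opposite strand over 5.1%, 4.1%, 1.2% and 0.8% of their exonic bases. No source used here says how the counting treated strand or shared reads, so reads of the genes and their copies may be split, shared or dropped.

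Other genes of the pathway were counted from 5 lists, and those not called or not reached by the naming rule are named after their values were seen. Of 14 APC/C core subunits, 10 rose, 1 fell and 3 were not called, with a median log2 difference of 0.77 (31.4% of all genes were called higher and 36.3% lower). Of the protein-coding genes tested, 45.9% were called higher and 24.7% lower, and with equal totals 29.8% higher and 44.3% lower. These shares are the background for each of the 5 lists. ANAPC13 stood at 4561 ± 339 normalized counts in KD (SD, n = 3) and 1046 in WT, CDC27 at 13504 ± 859 in KD and 4276 in WT, ANAPC16 at 3860 ± 336 in KD and 1324 in WT and ANAPC11, the RING subunit, at 1568 ± 85.4 in KD and 631 in WT. ANAPC2, the cullin subunit to which ANAPC11 binds, fell, at 766 ± 65.7 in KD and 1033 in WT (limma adjusted p = 0.0266). That call was lost without KD 1 (adjusted p = 0.0721) and without KD 2 (adjusted p = 0.0649), and also with no filter or under median-of-ratios scaling. ANAPC5, ANAPC4 and CDC16 were not called, at log2 differences of 0.28, 0.22 and 0.17 (limma adjusted p = 0.0509, 0.142 and 0.21), and ANAPC5 was called higher without KD 2 (adjusted p = 0.034). All 3 were called higher with TMM (adjusted p = 0.00749, 0.0383 and 0.0385) and with median-of-ratios scaling, which gave 13 higher subunits each, and lower with equal library totals (adjusted p = 0.011, 0.0227 and 0.00936). With equal totals 6 subunits were higher and 4 lower, and the median was 0.21.

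Of 18 other spindle checkpoint and kinetochore genes, 15 rose, 0 fell by limma and 3 were not called, with a median log2 difference of 1.42 (12 higher and 3 lower with equal totals). At an unadjusted p under 0.05 limma had 1 lower, and by adjusted p edgeR had 1 lower and DESeq2 0. ZWILCH, a subunit that recruits dynein and MAD proteins to kinetochores, stood at 4818 ± 525 in KD (SD, n = 3) and 880 in WT. NUF2 was at 2050 ± 269 in KD and 491 in WT, and its partner NDC80, with which it binds microtubules, at 4532 ± 481 in KD and 1318 in WT. MAD2L1BP, the TRIP13 adaptor, stood at 920 ± 64.7 in KD and 274 in WT. MAD1L1, which encodes the kinetochore anchor of MAD2L1, had 30 reads over the 3 KD libraries and 32 in WT, and its log2 difference of -2.11 was not called by limma (adjusted p = 0.0555). It was called lower without KD 2 (limma adjusted p = 0.0322) and by edgeR (adjusted p = 0.0192). INCENP and AURKB, of the chromosomal passenger complex, were not called, at 0.25 and 0.20 (limma adjusted p = 0.0736 and 0.153). Their calls turned with the scaling, to higher with TMM (adjusted p = 0.0109 and 0.0278) and lower with equal totals (log2 differences -0.31 and -0.36, adjusted p = 0.0155 and 0.0114).

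Of 18 other regulators of APC/C activity, 15 rose, 1 fell and 2 were not called, with a median log2 difference of 1.31 (12 higher and 4 lower with equal totals). The mitotic kinase gene CDK1 stood at 7561 ± 868 in KD (SD, n = 3) and 1664 in WT, its cyclin gene CCNB1 at 13116 ± 1334 in KD and 2903 in WT, and MAD2L2, whose protein can inhibit FZR1, at 1690 ± 186 in KD and 420 in WT. The priming E2 gene UBE2D1 stood at 2122 ± 219.7 in KD and 606 in WT. FBXO43 held few reads, at 254 over the 3 KD libraries and 76 in WT. SKP1, of the ligase that removes FBXO5, fell, at 1906 ± 12.1 in KD and 2462 in WT (limma adjusted p = 0.0124). That call was lost with median-of-ratios scaling (adjusted p = 0.098). The phosphatase gene CDC14A and the FBXO5 paralog FBXO43 were not called, at log2 differences of -0.05 and -0.09 (limma adjusted p = 0.768 and 0.825). With equal totals CDC14A was called lower (-0.61, limma adjusted p = 0.013) and FBXO43 was not (-0.65, adjusted p = 0.122).

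Of 30 G2/M genes outside the checkpoint and the APC/C, 26 rose, 1 fell and 3 were not called, with a median log2 difference of 1.44 (24 higher and 4 lower with equal totals). HMMR, CKS2, CCNA2 and UBE2T had the largest log2 differences, of 2.87, 2.60, 2.57 and 2.45, all below that of MAD2L1. They encode a spindle protein, a CDK subunit, cyclin A and an E2 enzyme of DNA repair. Among the others of this list, PRC1 held few reads, at 154 over the 3 KD libraries and 58 in WT. NUSAP1 fell, with 30.8 ± 10.9 normalized counts in KD (SD, n = 3) and 116 in WT (limma adjusted p = 0.0153). This rests on 104 reads over the 3 KD libraries and 104 in WT, and the call was lost with no filter (limma adjusted p = 0.1). MKI67, the proliferation antigen, was not called, with 32014 ± 2405 in KD and 29491 in WT (limma log2 difference 0.12, adjusted p = 0.487). With equal totals MKI67 was called lower, at -0.45 (limma adjusted p = 0.0108). The separase gene ESPL1 and the midzone gene PRC1 were not called either, at -0.12 and -0.45 (limma adjusted p = 0.333 and 0.285), and both were called lower with equal totals, at -0.69 and -1.0 (adjusted p = 0.00287 and 0.0461).

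Of 17 regulators of G2/M transcription, 15 rose, 0 fell by limma and 2 were not called, with a median log2 difference of 1.16 (11 higher and 2 lower with equal totals). At an unadjusted p under 0.05 limma had 0 lower, and by adjusted p edgeR and DESeq2 had 0 as well. The MuvB subunit gene LIN9 stood at 4065 ± 535 normalized counts in KD (SD, n = 3) and 693 in WT. LIN52, of the same complex, stood at 2619 ± 228 in KD and 1002 in WT. LIN37 held few reads, at 178 over the 3 KD libraries and 56 in WT. NFYB, a subunit of NF-Y, stood at 851 ± 50.6 in KD and 236 in WT, and the pocket protein gene RBL1 at 2984 ± 125 in KD and 1175 in WT. LIN54, whose protein contacts the CHR letters, rose by a log2 difference of 1.16 (limma adjusted p = 2.37e-04). TFDP2 and LIN37 were not called, at 0.13 and -0.17 (limma adjusted p = 0.33 and 0.651). TFDP2 was called higher with median-of-ratios scaling (adjusted p = 0.0329) and lower with equal totals (-0.43, adjusted p = 0.00559).

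**Figure D5:**
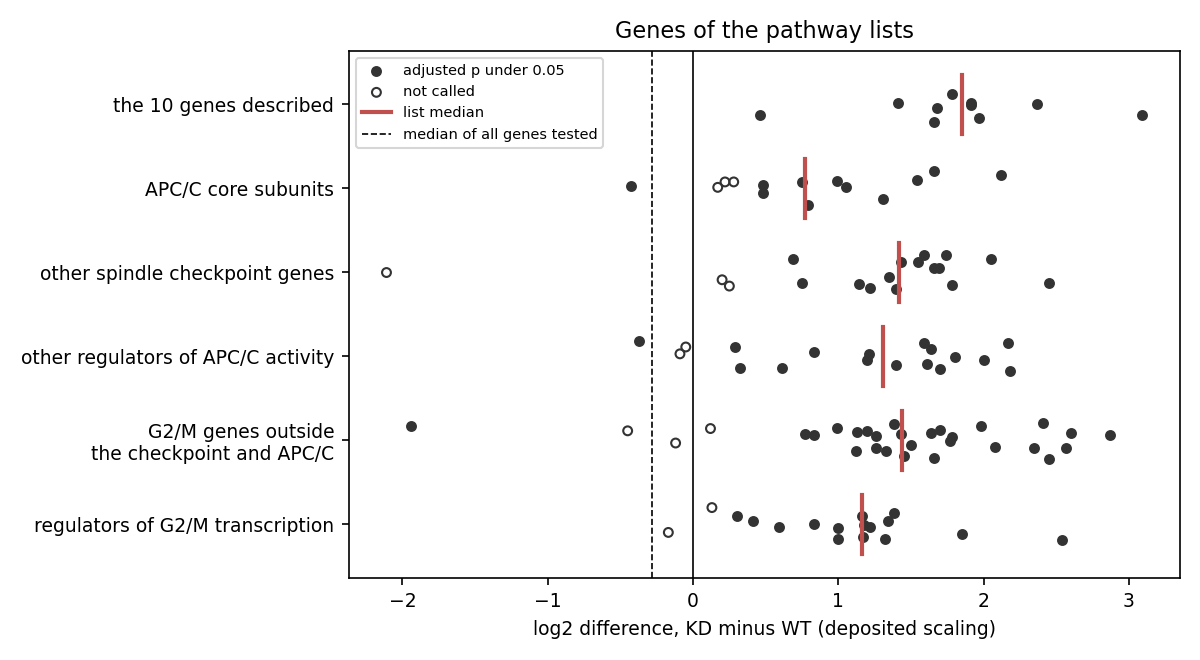
log2 difference between KD and WT (deposited scaling) for the 10 genes and for the genes of 5 pathway lists, filled where the adjusted p was under 0.05. Red lines are list medians, from 1.85 for the 10 genes to 0.77 for the APC/C core subunits, and the dashed line is the median of all genes tested at -0.28.

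The genes most like the mean profile of the 10 genes over the 4 libraries, by root mean square distance on the log2 scale among protein-coding genes outside all lists, were PCTP (0.008), MAPRE1 (0.012), TMEM230 (0.013), SCD5 (0.016) and AP2S1 (0.016). TRIP13 lay at 0.041 from that profile, nearest of the 10, and FZR1 (0.596) and MAD2L1 (0.551) farthest. As many as 86 protein-coding genes lay at least as near as TRIP13, and 6104 lay within the distance of FZR1.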

How the data were processed

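Ribosomal-RNA-depleted, strand-marked total RNA libraries (100 ng input, 13 PCR cycles, per the labels' protocols) were sequenced from 3 KD and 1 WT preparations of OVCAR3. STAR 2.7.11b, featureCounts 2.0.6 and DESeq2 with hg38 are named per the submitters' processing notes. The annotation release, the strand setting and the handling of shared reads are not stated in them. The deposited values are normalized read counts per gene, a signal made by the authors. In each library 100% of them were whole multiples of 1 step (tolerance 0.001 reads), so the reads were recovered, giving factors of 1.0551, 1.2869 and 0.8995 in KD and 0.9003 in WT.

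In R 4.3.3, the groups were compared by limma-trend (version 3.58.1), two-sided, with a pseudocount of 1 added before taking log2, for genes with a mean of at least 10 over the 4 libraries. All 10 genes passed this filter. The spread comes from the KD libraries alone, and the lone WT library is assumed to vary like them. Alternatives were other scalings, pseudocounts 0.5 and 5, no filter, a minimum of 50 and protein-coding genes only. Others were edgeR 4.0.16 and DESeq2 1.42.0 on the recovered reads with the deposited factors, and leaving out each KD library. In a further alternative the KD reads were thinned to the WT total and all libraries were scaled to equal totals. The steps were also run on simulated counts, with 100 of 23344 genes changed 2-fold and 100 changed 4-fold. There WT was drawn with the spread of KD and known factors. That setting lacks the marker differences of WT and the doubt about scaling, so it cannot show that the calls here are right. Counting intervals are exact at 95%. Gene positions and lengths are those of GENCODE 29, in which 95.1% of tested identifiers were found. The genes, lists, motifs and naming rule (up to 4 called genes per list with the largest difference, and called genes against the majority) were chosen with earlier results of these data known. For the neural marker list, 1 gene is not reported here and is left out of its sums and counts.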

Additional observations from a re-analysis of the deposited data

How the results depend on the processing

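CDC20, UBE2C, UBE2S, FBXO5, MAD2L1, BUB1B, BUB3, TTK and TRIP13 kept their direction and their call under all 15 alternatives run, with log2 differences of 0.84 to 3.27 and adjusted p of at most 0.0123. FZR1 turned to -0.01 with upper-quartile scaling, -0.10 with equal library totals and -0.11 with thinned KD reads (adjusted p = 0.944, 0.384 and 0.491), and lost its call with no filter (log2 difference 0.46, adjusted p = 0.072). The thinned KD reads were also scaled to equal library totals, so that alternative does not show depth alone and is not separate from equal totals. Genes that were not called with the deposited scaling turned too, and most gained a call. In the order upper-quartile scaling, equal totals and thinned KD reads, ANAPC4 stood at -0.24, -0.34 and -0.34, ANAPC5 at -0.19, -0.29 and -0.29, CDC16 at -0.29, -0.39 and -0.41, INCENP at -0.22, -0.31 and -0.30, AURKB at -0.26, -0.36 and -0.36, MKI67 at -0.35, -0.45 and -0.44 and TFDP2 at -0.34, -0.43 and -0.42. All of these were calls of lower (adjusted p of 0.00559 to 0.0484) except ANAPC4 with upper-quartile scaling (adjusted p = 0.071). ANAPC4, ANAPC5, CDC16, INCENP and AURKB were called higher with TMM (adjusted p of 0.00749 to 0.0385) and, with TFDP2, under median-of-ratios scaling (0.00763 to 0.0329). CDC14A was called lower at -0.52, -0.61 and -0.60 (adjusted p = 0.021, 0.013 and 0.0459) and ESPL1 at -0.59, -0.69 and -0.71 (adjusted p = 0.00375, 0.00287 and 0.0086) in the same order. Without a call, CDC14A stood at 0.05 with TMM and 0.13 with median-of-ratios scaling, FBXO43 at 0.01 and 0.09 with these and 0.08 without KD 2, and ESPL1 at 0.06 and LIN37 at 0.01 with median-of-ratios. The median of the 10 genes, 1.85, was 1.95 with TMM, 1.38 with upper-quartile, 2.03 with median-of-ratios and 1.29 with equal-totals scaling, and 1.27 with thinned reads. Genes called higher numbered 4746 with equal totals and 4561 with thinned reads, against 7329, and genes called lower 5086 with a mean of at least 50 and 3710 among protein-coding genes only, against 8465; the last pair tested fewer genes. For the APC/C core, 13 subunits were higher with TMM and with median-of-ratios scaling, 6 subunits were higher with upper-quartile scaling, equal totals and thinned reads, and 3, 4 and 4 lower; 0 were lower with median-of-ratios scaling and no filter. Of the other checkpoint genes, 3, 3 and 2 were lower with upper-quartile scaling, equal totals and thinned reads, and 1 (MAD1L1) with pseudocount 5, edgeR and protein-coding genes only. Of the other APC/C regulators, 2, 4 and 4 were lower with upper-quartile scaling, equal totals and thinned reads and 0 with median-of-ratios. Of the G2/M genes these were 3, 4 and 3, and 0 with no filter, and of the transcription regulators 1, 2 and 2. Where no construction shows it, the cause was not tested. Leaving out a KD library in turn gave 0 to 1 lower core subunits and 0 to 1 lower checkpoint genes. No paired analysis was possible because WT is a single library that shares no set number with KD. The lone WT library, its markers of other cell types and the use of cells without a hairpin as WT limit every comparison, and none of these was varied.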
